A study of Mus musculus with 12 samples.

Results

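Tumours of 4T1 cells, a mouse mammary carcinoma line, were examined for 10 genes that encode signals known to call up, feed or hold back myeloid cells. These were the chemokines Cxcl1, Cxcl2, Cxcl3, Cxcl5 and Cxcl12, the colony-stimulating factors Csf1, Csf2 and Csf3, and the interleukins Il1a and Il1b. They were picked by name, with earlier results of these data known. The mRNA table held 22769 genes that were not listed at 0, these 10 among them. The stress group was 3 tumour libraries from Balb/c mice held in chronic restraint for 2 hours a day over 28 days, and the control group was 3 tumour libraries from untreated Balb/c mice. Both groups carried the same 4T1 graft and were collected 35 days after inoculation, as frozen whole tumour. The labels do not say that each library came from a separate mouse, so the p-values measure the spread between these libraries. The miRNA libraries of the series were not used here.

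Cxcl1, Cxcl2, Cxcl3 and Cxcl5 are small secreted proteins that act through the receptor Cxcr2 and draw neutrophils out of the blood. Il1a and Il1b are released by damaged or activated cells, signal through Il1r1 with Il1rap, and switch on the CXC chemokine and Csf3 genes in stromal and tumour cells by way of the NF-kB factors. Csf3 (G-CSF) drives the making and release of neutrophils from bone marrow, and 4T1 tumours are known for high G-CSF and a marked rise of neutrophils in the host. Csf1 (M-CSF) keeps macrophages alive, and Csf2 (GM-CSF) acts on granulocytes, macrophages and dendritic cells. Cxcl12 is made mainly by stromal cells, binds Cxcr4 and Ackr3, and holds neutrophils back in the marrow.

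No member passed the threshold of an adjusted p of 0.05 in limma, a linear model fitted to the log2 values of the 14098 genes that averaged 4 or more on that scale. All 10 members were above that floor and were tested. The CXCR2 ligand genes, Csf3 and Il1b stood between 0.35 and 0.86 higher on the log2 scale in the stressed tumours, and Cxcl12 stood 0.91 lower. Csf1 and Csf2 differed by under 0.02. The 1 member whose groups were apart was Cxcl1.

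Values of whole tumours mix all cell types, so fewer or more cells of a type and less or more RNA per cell cannot be told apart. The tumours held RNA of carcinoma, stroma and blood cells. Of 10 carcinoma and epithelial markers, 9 passed the floor, among them the keratin Krt8 at log2 levels of 13.75 to 13.88 in stress and 13.75 to 13.89 in control libraries, while Krt5 was near 0 in all 6. Of these 9, 4 were above 0 in difference between stress and control and 5 below. Krt7 stood 0.36 lower in stress with groups apart (limma adjusted p = 0.221), and Cldn7 0.21 lower (0.411) with groups that overlapped. The log2 sum of that list was 15.29 to 15.46 in stress and 15.30 to 15.45 in control. Skeletal muscle markers varied more, with sums of 12.62, 12.93 and 11.33 in stress replicates 1 to 3 and 12.51, 13.70 and 13.95 in control replicates 1 to 3. How deeply each library was sequenced is unknown.

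The genes of the 4 CXCR2 ligands lie near each other on the plus strand of chromosome 5 (GRCm38, GENCODE M21), in the order Cxcl5 (chr5:90759360-90761624), Cxcl3 (chr5:90786103-90789600), Cxcl1 (chr5:90891241-90893115) and Cxcl2 (chr5:90903871-90905938). The gaps from each of these members to the next are 24.5 kb, 101.6 kb and 10.8 kb. Genes that are not members were not looked for in the gaps. Il1a (chr2:129299610-129309972) and Il1b (chr2:129364570-129371139) are 54.6 kb apart and both on the minus strand of chromosome 2. Cxcl12 (chr6:117168535-117181367), Csf1 (chr3:107741048-107760469), Csf2 (chr11:54247271-54249667) and Csf3 (chr11:98701263-98703629) lie elsewhere.

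RefSeq promoter windows on GRCm38.p6, from 250 bases before to 50 bases after the gene's start, matched 8 of the 10 members, all but Cxcl5 and Csf3. For Csf2, on the minus strand, the RefSeq start lay upstream of the GENCODE start at chr11:54249667. The bases just before that GENCODE start were outside its window and were not searched. The 110 bases before and 10 bases after the start are printed for the 3 chemokine genes with the same 10-letter match, and for Cxcl12 as the member with the opposite sign. Capitals mark matches to GGGNNTTTC (a pattern of NF-kB binding sites, N being any base, both strands searched), to GGGAATTTCC (its longer form shared by these 3 promoters), and to TATAAA and ATAAAAG (2 TATA-box-like strings that can overlap each other, gene strand only).
Cxcl1, chr5:90891135-90891254, plus strand: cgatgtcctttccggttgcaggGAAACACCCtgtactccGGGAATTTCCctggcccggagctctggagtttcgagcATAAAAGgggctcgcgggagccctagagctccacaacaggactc
Cxcl2, chr5:90903789-90903908, plus strand: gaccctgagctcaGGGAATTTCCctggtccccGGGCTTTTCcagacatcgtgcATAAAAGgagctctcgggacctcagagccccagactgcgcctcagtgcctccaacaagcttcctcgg
Cxcl3, chr5:90785991-90786110, plus strand: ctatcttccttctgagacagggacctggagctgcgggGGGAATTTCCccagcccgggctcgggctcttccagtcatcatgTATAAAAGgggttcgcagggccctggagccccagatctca
Cxcl12, chr6:117168425-117168544, plus strand: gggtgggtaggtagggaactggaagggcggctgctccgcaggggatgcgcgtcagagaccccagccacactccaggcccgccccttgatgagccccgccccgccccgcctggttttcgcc

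The string GGGAATTTCC began at position -71 from the RefSeq start in Cxcl1, -97 in Cxcl2 and -73 in Cxcl3. In Cxcl2 that start lies downstream of the GENCODE start at chr5:90903871, to which the string is nearer. It stood in 29 of 32851 RefSeq promoter windows, which is 0.0883%. The string had been picked as the longer form of GGGNNTTTC shared by the most members, so its rarity is no test. These 3 genes also lie in the same stretch of chromosome 5. Each of these 3 windows also held ATAAAAG, found in 3.38% of all windows, and Cxcl3, Il1a and Il1b held TATAAA, found in 8.32%. The looser GGGNNTTTC was in 4.36% of all windows and in 4 of the 8 member windows, the fourth being Csf1. In Cxcl1 the first capitals, GAAACACCC, are a match on the other strand, and in Cxcl2 the second, GGGCTTTTC, is a further match. GGGNNTTTC together with either TATA-like string was in 158 windows (0.481%), 3 of them the windows of Cxcl1, Cxcl2 and Cxcl3. The AP-1 pattern TGANTCA (both strands) was in 7.81% of windows and, among the members, in Il1a. The STAT pattern TTCNNNGAA (both strands) was in 8.30% of windows and in 0 of the 8 member windows. These are matches of letters in a window, not measured binding.

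**Figure D1:**
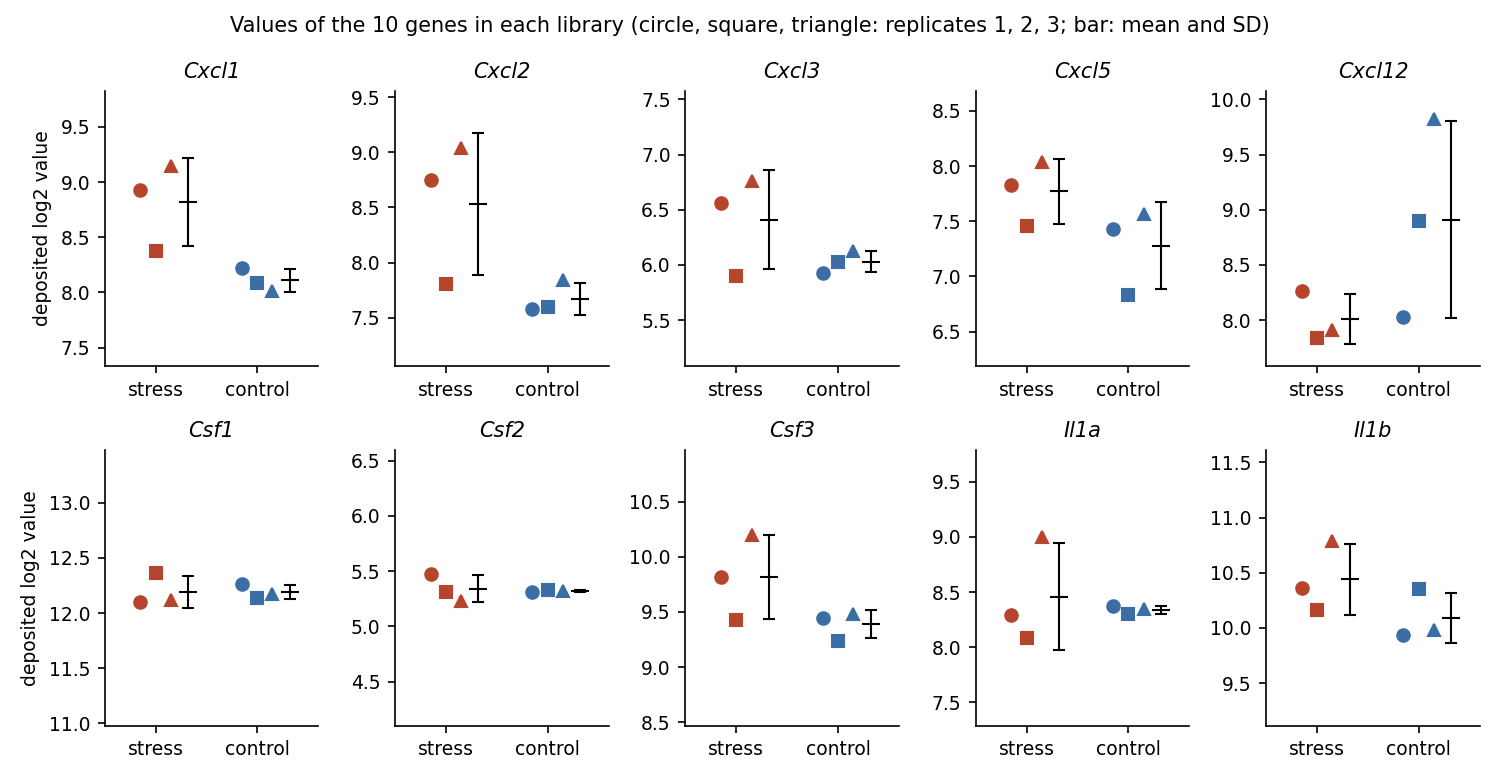
Deposited log2 value (vertical axes, each spanning 2.5 log2 units) of the 10 genes in the 3 stress libraries (red, left) and the 3 control libraries (blue, right), with the mean and SD of each group as a black bar. The stress values of Cxcl1 (8.38 to 9.15) all lie above its control values (8.01 to 8.22), while in the other 9 genes the groups overlap.

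Cxcl1 encodes a major neutrophil attractant of mouse tissue, often called KC. Its log2 levels were 8.93, 8.38 and 9.15 in stress replicates 1 to 3 and 8.22, 8.09 and 8.01 in control replicates 1 to 3. Every stress library was above every control library, and stress replicate 2 was closest to the controls. The mean was 8.82 ± 0.401 in stress and 8.11 ± 0.105 in control (SD, n = 3 each). The difference was 0.71 ± 0.187 (SE; 1.64-fold, 95% interval 0.27 to 1.15), with a limma p of 0.00648 and an adjusted p of 0.153.

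Cxcl2, or MIP-2, is made by macrophages and neutrophils as well as by tissue cells. Its log2 levels were 8.75, 7.81 and 9.04 in stress replicates 1 to 3 and 7.58, 7.60 and 7.84 in control replicates 1 to 3. Stress replicates 1 and 3 were about a full log2 unit above the controls, and stress replicate 2 lay inside the control range. The difference was 0.86 ± 0.296 (SE; 1.82-fold, 95% interval 0.16 to 1.57, limma adjusted p = 0.219), the largest positive one among the members. With stress replicate 2 left out it was 1.22 (adjusted p = 0.0655). The genes tested that were most like Cxcl2 over the 6 libraries, by Pearson's r, were Doc2g (0.994), Smad1 (0.991) and Rhov (0.990). These r values describe the 6 libraries and carry no test.

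Cxcl3 is the closest relative of Cxcl2 in this set. Of its 31-base stretches in protein-coding transcripts, 8.11% also occur in Cxcl2, and 4.30% of those of Cxcl2 occur in Cxcl3, so reads from these stretches can be split between the genes. The log2 levels of Cxcl3 were 6.56, 5.90 and 6.76 in stress replicates 1 to 3 and 5.93, 6.03 and 6.13 in control replicates 1 to 3. Stress replicate 2 was the lowest of all 6 libraries, and the other stress libraries were the highest. The difference was 0.38 ± 0.206 (SE; 1.30-fold, adjusted p = 0.389), 0.20 without stress replicate 3 and 0.63 without stress replicate 2.

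Cxcl5, or LIX, is a CXCR2 ligand typical of epithelial cells. In log2 levels it had 7.83, 7.46 and 8.04 in stress replicates 1 to 3 and 7.43, 6.83 and 7.57 in control replicates 1 to 3. Control replicate 2 was the lowest library, and control replicate 3 was above stress replicate 2. The difference was 0.50 ± 0.220 (SE; 1.41-fold, 95% interval -0.02 to 1.02, adjusted p = 0.302). It was 0.27 without control replicate 2.

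Csf3 stood beside the CXCR2 ligands. Csf3 had log2 levels of 9.82, 9.43 and 10.20 in stress replicates 1 to 3 and 9.45, 9.24 and 9.48 in control replicates 1 to 3. Stress replicates 1 and 3 were above all controls, and stress replicate 2 fell among them. The difference was 0.43 ± 0.180 (SE; 1.34-fold, limma adjusted p = 0.287), and 0.24 without stress replicate 3.

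Il1b needs cleavage by caspase-1 before it can signal, so its mRNA is only a part of its control. Its log2 levels were 10.36, 10.16 and 10.79 in stress replicates 1 to 3 and 9.94, 10.35 and 9.98 in control replicates 1 to 3. Stress replicate 3 was clearly highest, and control replicate 2 stood level with stress replicate 1. The difference was 0.35 ± 0.176 (SE; 1.27-fold, adjusted p = 0.355), and 0.17 without stress replicate 3. An antisense gene, Il1bos, overlaps Il1b on the other strand, and whether reads were assigned by strand is not stated. Of the 1326 31-base stretches in Il1b transcripts, 0 occur on either strand in transcripts of another gene.

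Il1a is active without cleavage and is released by dying cells as an alarm signal. Its log2 levels were 8.29, 8.08 and 9.0 in stress replicates 1 to 3 and 8.37, 8.30 and 8.35 in control replicates 1 to 3. Stress replicate 3 was far above the rest, while stress replicate 1 was level with the lowest control and stress replicate 2 was below all controls. The difference was 0.12 ± 0.217 (SE; adjusted p = 0.81) and turned to -0.15 without stress replicate 3. Gm14023, a gene on the opposite strand, shares 195 of the 1944 31-base stretches of Il1a.

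Csf1 and Csf2 lay close to 0 in difference. Csf1 had log2 levels of 12.10, 12.36 and 12.12 in stress replicates 1 to 3 and 12.26, 12.14 and 12.17 in control replicates 1 to 3. The groups were interleaved, and the difference was 0.00458 ± 0.0798 (SE; 95% interval -0.18 to 0.19, adjusted p = 0.983). Of 13 monocyte and macrophage markers, the cells that answer to Csf1, 6 were above 0 in difference, and their log2 sums were 14.55 to 15.04 in stress and 14.76 to 14.86 in control. Csf2 had log2 levels of 5.47, 5.31 and 5.23 in stress replicates 1 to 3 and 5.31, 5.33 and 5.32 in control replicates 1 to 3. Its controls were within 0.02 of each other and lay inside the stress range. The difference was 0.0189 ± 0.0686 (SE; 95% interval -0.14 to 0.18, adjusted p = 0.914). Of its 31-base stretches, 9.22% also occur in other genes, among them the antisense gene Gm12223. These intervals bound the differences, and do not show that the levels were equal.

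Cxcl12 was the only member below 0. Its log2 levels were 8.26, 7.84 and 7.91 in stress replicates 1 to 3 and 8.03, 8.90 and 9.82 in control replicates 1 to 3. The controls were spread over 1.78 log2 units, and control replicate 1 lay inside the stress range. The mean was 8.01 ± 0.225 in stress and 8.91 ± 0.892 in control (SD, n = 3 each), a difference of -0.91 ± 0.410 (SE; 1.88-fold lower, 95% interval -1.88 to 0.07, adjusted p = 0.315). It was -0.46 without control replicate 3 and -1.35 without control replicate 1.

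Control replicates 2 and 3 were the highest libraries in the stromal and muscle marker sums too. Among the stress libraries the endothelial sum had the order of Cxcl12, and the fibroblast and muscle sums did not. The log2 sum of 10 fibroblast markers was 16.60, 16.40 and 16.12 in stress replicates 1 to 3 and 16.45, 17.55 and 17.11 in control replicates 1 to 3, with 9 of the 10 genes below 0 in difference. All 10 endothelial markers were below 0, with sums of 13.17, 12.96 and 13.06 in stress and 13.22, 13.23 and 13.40 in control. All 8 skeletal muscle markers were below 0, with a median difference of -0.92. Control replicate 1 lay inside the stress range in the fibroblast and muscle sums, as for Cxcl12, and just above it in the endothelial sum. None of these lists had its defining genes at 0, and their part in the Cxcl12 difference was not tested. The genes most like Cxcl12 over the 6 libraries were Nol3 (r = 0.991), the muscle AMP deaminase Ampd1 (0.991) and Atp1b2 (0.986).

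**Figure D2:**
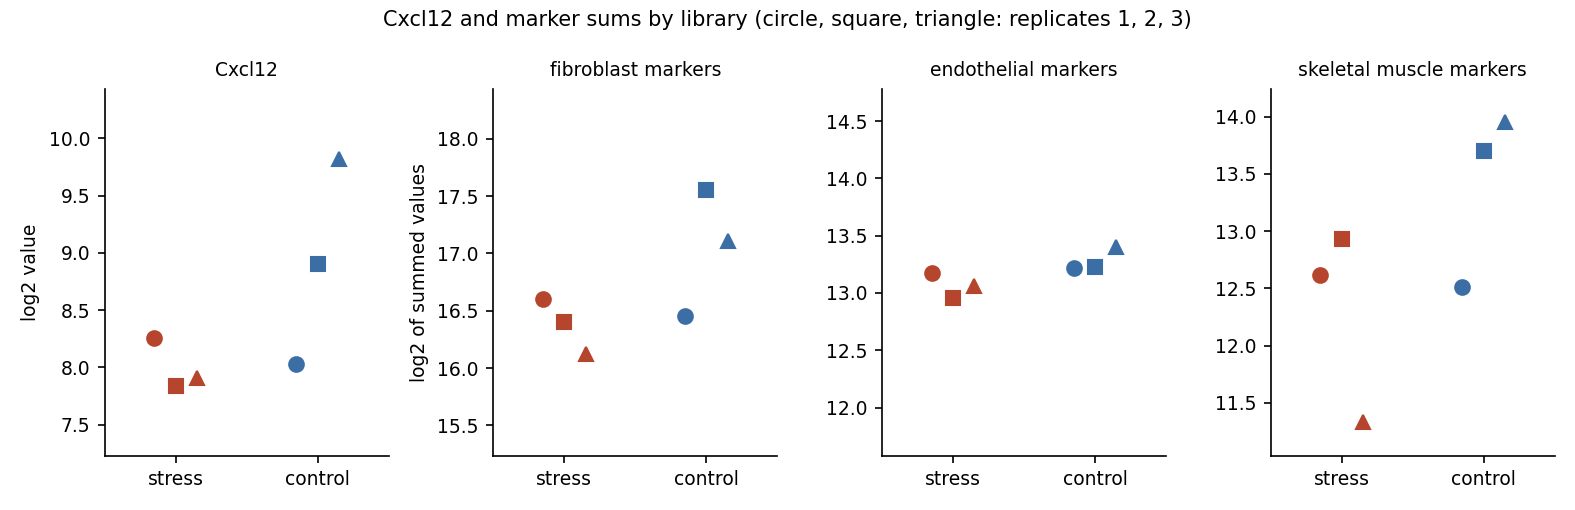
Log2 value of Cxcl12 and log2 of the summed linear values of the fibroblast, endothelial and skeletal muscle marker lists, by library, with stress (red) left of control (blue) and a common span of 3.2 log2 units. Control replicates 2 and 3 are the highest libraries in each panel, and control replicate 1 lies inside the stress range for Cxcl12 (8.03), the fibroblast sum (16.45) and the muscle sum (12.51).

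Over the 10 members, 0 of 10 had an adjusted p under 0.05, against 0.0355% of all genes tested (0.0213% higher and 0.0142% lower). At an unadjusted limma p under 0.05 there were 2 of 10, Cxcl1 and Cxcl2, both higher, against 8.26% of all genes in that direction, and 0 lower, against 9.15% (17.4% in either direction). The count in either direction was 6 without stress replicate 2 (16.9% of all genes) and 1 without stress replicate 1 (14.3%) or 3 (13.9%). It was 4 after quantile normalization (17.5%) or with the replicate number as a block (16.3%). Without the filter on low values (12.1%) or without control replicate 3 (11.4%) it was 3. Groups that did not overlap, with all stress libraries above all control libraries, were found in 1 of 10, against 12.1% of all genes, and the reverse in 0 of 10, against 12.3% (24.3% in all). That count is no higher than the background. A difference above 0 was found in 9 of 10, against 50.6%. A difference of at least 0.3, a bound chosen after the values were seen, was found in 6 of 10 on the higher side, against 2.58%, and in 1 of 10 on the lower side, against 3.6%, together 7 of 10, against 6.18%. The median difference of the members was 0.36 and that of all genes 0.0014, and the median absolute difference was 0.40 for the members and 0.0827 for all genes. The members were chosen with earlier results of these data known, so these contrasts with all genes are descriptions and no test. With any 1 library left out, 8 or 9 of the 10 differences were above 0, and the median was 0.19 without stress replicate 3. No other scaling, filter or left-out library brought a member past the threshold.

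**Figure D3:**
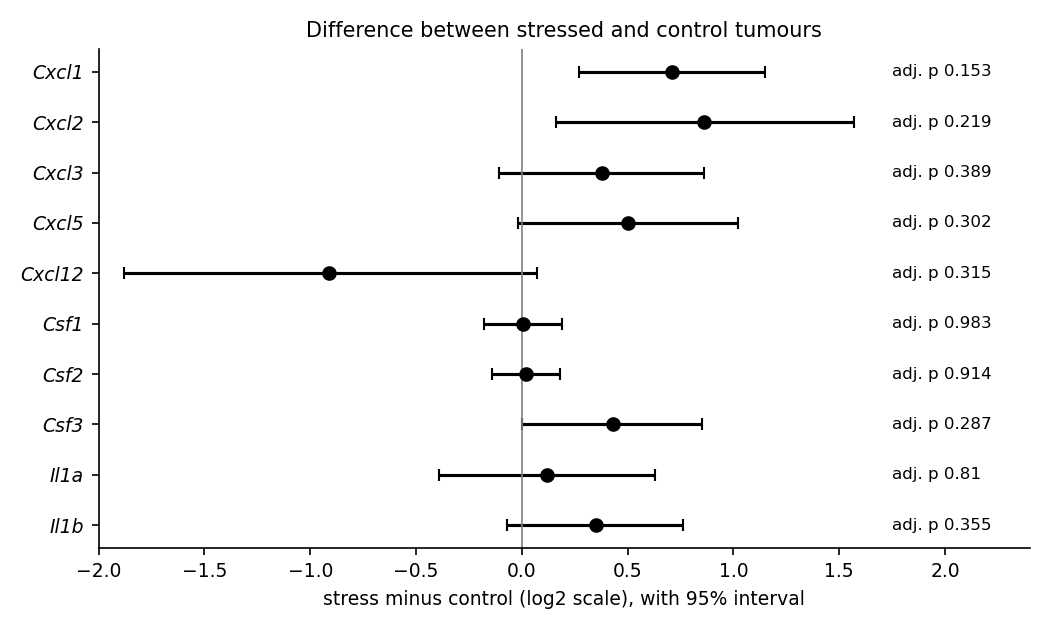
Stress minus control difference of each gene on the log2 scale (horizontal axis) with its 95% interval from limma, and the adjusted p at the right. The intervals of Cxcl1 (0.27 to 1.15) and Cxcl2 (0.16 to 1.57) lie above 0, those of the other 8 genes reach 0 or cross it, and every adjusted p is at least 0.153.

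The stressed tumours differed among themselves in these genes. In 7 of 10 members, namely Cxcl1, Cxcl2, Cxcl3, Cxcl5, Csf3, Il1a and Il1b, stress replicate 3 was highest, replicate 1 next and replicate 2 lowest of the stress libraries, an order seen in 19.7% of all genes tested. In the same 7, stress replicate 3 was also the highest of all 6 libraries, against 23.2% of all genes. The range within the stress group was wider than within the control group in 8 of 10 members, against 53.2% of all genes. Csf1 had stress replicate 2 highest, Csf2 had replicate 1 highest, and Cxcl12 had replicate 1 highest.

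The receptor genes were led by that of G-CSF. Csf3r had log2 levels of 10.13, 10 and 10.36 in stress replicates 1 to 3 and 9.47, 9.53 and 9.63 in control replicates 1 to 3. Every stress library was above every control library, by a difference of 0.62 ± 0.0974 (SE, limma adjusted p = 0.0881). Cxcr4, the receptor of Cxcl12, had 8.81, 8.72 and 8.99 in stress replicates 1 to 3 and 8.29, 8.60 and 8.67 in control replicates 1 to 3. Its groups were also apart, by 0.32 (adjusted p = 0.235), a difference opposite in sign to that of its ligand.

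Of 13 receptor genes, 11 were tested and 0 passed, with 2 at an unadjusted p under 0.05 and with groups apart, Csf3r and Cxcr4, both higher. Over all genes 8.26% had such a p and 12.1% had groups apart on the higher side, and 17.4% had such a p in either direction, so 2 of 11 is near the background. Cxcr1 and Ackr1 were below the floor. Cxcr2, the receptor of the 4 chemokines, stood 0.35 higher (adjusted p = 0.316) and the scavenger Ackr3 0.30 higher (0.387). The IL-1 receptors followed, with Il1r1 0.18 higher (adjusted p = 0.289), its partner Il1rap 0.23 higher (0.494) and the decoy Il1r2 0.32 higher (0.416). The receptors of Csf1 and Csf2 were close to 0 in difference, at -0.0845 for Csf1r, -0.0431 for Csf2ra, -0.0279 for Csf2rb and -0.0785 for Csf2rb2, with adjusted p of 0.776 to 0.907. The median over the 11 was 0.23.

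**Figure D4:**
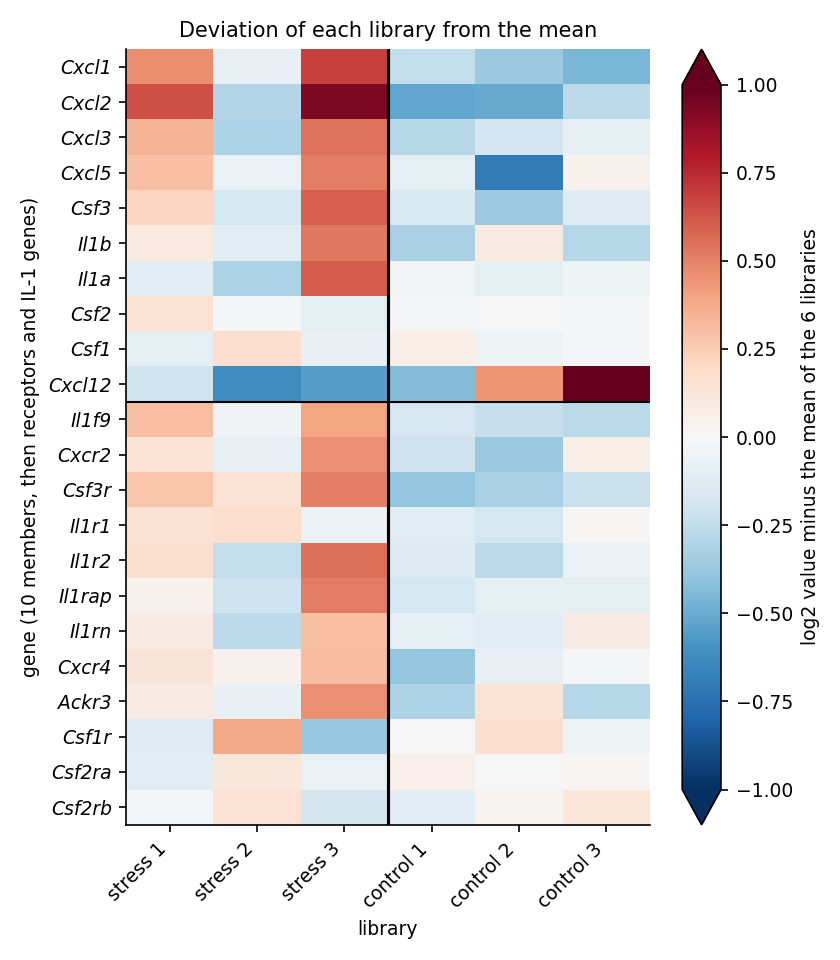
Log2 value of each library minus the gene's mean over the 6 libraries (colour, red above and blue below the mean) for the 10 members and, below the line, for receptors and IL-1 genes, with stress libraries left of control libraries. Stress replicate 3 is the reddest column for Cxcl1, Cxcl2, Cxcl3, Cxcl5, Csf3, Il1a and Il1b, as it is for Csf3r, Cxcr2, Il1r2 and Il1rap, while Csf1, Csf1r and Csf2ra are not highest there.

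Ratios of ligand to antagonist or receptor within each library were compared for 6 pairs by an exact two-sided permutation test, which with 3 against 3 libraries cannot go below 0.1. Cxcl12 minus Cxcr4 was -0.55, -0.88 and -1.08 in stress replicates 1 to 3 and -0.26, 0.30 and 1.14 in control replicates 1 to 3 on the log2 scale. All stress ratios were below all control ratios, by -1.23 (exact p = 0.1, the smallest possible, and 0.6 adjusted over the 6 pairs). Csf3 minus Csf3r differed by -0.20 (exact p = 0.2), and by -0.0874 without stress replicate 2 or -0.13 without control replicate 1. Il1b minus its antagonist Il1rn differed by 0.27 (exact p = 0.3), and by 0.44 without control replicate 2 or 0.16 without control replicate 3. The other pairs, Il1a minus Il1rn, Il1r1 minus Il1r2 and Csf1 minus Csf1r, had differences of 0.04, -0.13 and 0.09 with overlapping groups. Il1rn itself stood 0.0763 higher (adjusted p = 0.811).

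Markers of neutrophils often had the order of stress libraries of the chemokines, as did some other lists. Of 27 listed, 21 were tested, 0 passed, and 18 were above 0 in difference, with a median of 0.32; 10 had an unadjusted p under 0.05 and 9 had groups apart, all on the higher side, against 8.26% and 12.1% of all genes. The list was drawn up with earlier results of these data known and shares Csf3r and Cxcr2 with the receptors. After Csf3r, the smallest p values were those of the lectin receptor Clec4e (0.51 higher, adjusted p = 0.105) and of G0s2 (0.85 higher, adjusted p = 0.111). The 3 below 0 were Mmp9 (-0.54, limma adjusted p = 0.562), Retnlg (-0.0649) and Trem1 (-0.0657), all with groups that overlapped. The log2 sum of the list overlapped between the groups, at 14.53, 14.15 and 14.60 in stress replicates 1 to 3 and 14.32, 14.00 and 14.29 in control replicates 1 to 3. The stress order of 3, 1 and 2 was found in 13 of the 21, against 19.7% of all genes. It was not particular to this list, being found in 6 of the 11 receptor genes and 5 of the 9 carcinoma and epithelial markers. The carcinoma and epithelial sum had it too, at 15.44, 15.29 and 15.46 in stress replicates 1 to 3. Of the 13 monocyte and macrophage markers, 1 had it. Ly6g, the defining surface marker of mouse neutrophils, was near 0 in all libraries (-0.10 to -0.05), and Camp, Elane, Mpo, Trem3 and Stfa3 were also below the floor. The part of neutrophil number in the chemokine values was not tested.

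The other genes around these signals were described by lists. Among 13 tested genes of the IL-1 family and its processing, 0 passed and 9 were above 0 in difference. Of the 13, 1 had an unadjusted p under 0.05 and groups apart, against 17.4% and 24.3% of all genes in either direction. That 1 was Il1f9, which encodes IL-36 gamma. It had 6.32, 5.98 and 6.41 in stress replicates 1 to 3 and 5.85, 5.79 and 5.75 in control replicates 1 to 3, a difference of 0.44 (adjusted p = 0.147) with groups apart. Its r with Cxcl1 over the 6 libraries was 0.998, the highest of all genes tested that are not members. Zfp965 (0.997) and Tanc2 (0.995) came next. The highest such r of each member lay between 0.989 and 0.998, so a value of this size was usual, and it carries no test. Casp4, of the non-canonical inflammasome, stood 0.23 higher (adjusted p = 0.343) and Il34, a further ligand of Csf1r, 0.12 higher (0.375). Il1f5, Il1f6 and Il1f8 were listed at 0.

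Of 24 genes that relay signals from IL-1 and Toll-like receptors, 0 passed, 15 were above 0 in difference, and 4 higher and 1 lower had an unadjusted p under 0.05, near the 17.4% of all genes in either direction. The kinase Irak2 stood 0.30 higher (adjusted p = 0.12), the atypical IkB protein gene Nfkbiz 0.28 higher (0.178) and the inhibitor gene Nfkbia, itself an NF-kB target, 0.35 higher (0.189). The groups were apart in these 3 genes, and in 6 higher and 2 lower of the 24, against 24.3% of all genes. Of 17 tested other NF-kB target genes, 0 passed, 10 were above 0 and 3 had an unadjusted p under 0.05, all higher, while 17.4% of all genes had such a p in either direction and 8.26% on the higher side. These were Sphk1 0.27 higher (adjusted p = 0.165), the prostaglandin E synthase gene Ptges 0.45 higher (0.202) and Lcn2 0.83 higher (0.279); Lcn2 is also in the neutrophil list.

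The inducers IL-17 and TNF gave no common direction. Of 9 tested genes 4 were above 0 and 0 passed, with a median of -0.00733. An unadjusted p under 0.05 and groups apart were found in 1, against 17.4% and 24.3% of all genes in either direction. The TNF receptor gene Tnfrsf1b stood 0.25 higher (adjusted p = 0.12), Il6 0.24 lower (0.446) and the IL-17 adaptor gene Traf3ip2 0.15 higher (0.468). Il17a and Il17b were listed at 0, and Il17c, Il17f and Lta were below the floor. Of the other CXC chemokines, 5 of 6 tested were below 0 in difference, with a median of -0.21, and 0 passed. Only Cxcl14, 1 of the 6, had an unadjusted p under 0.05 and groups apart, against 17.4% and 24.3% of all genes. Cxcl14 had 10.23, 10.37 and 9.44 in stress replicates 1 to 3 and 10.83, 10.85 and 10.69 in control replicates 1 to 3, a difference of -0.77 (adjusted p = 0.178) with groups apart. The interferon-induced Cxcl9 and Cxcl11 differed by -0.32 (adjusted p = 0.584) and -0.22 (0.598).

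Messenger RNAs of this group are known for AU-rich elements, runs of ATTTA in the 3' UTR through which proteins of the Zfp36 family speed decay. The 30-base stretches with the most ATTTA in the 3' UTR are printed for 5 members that carry many and for Cxcl12, which carries few for its length, with ATTTA in capitals (GRCm38, sense strand).
Csf2, chr11:54247324-54247353, minus strand: aaatATTTATTTATTTATTTATTTAttttt
Cxcl1, chr5:90892607-90892636, plus strand: tcctATTTATTTAtgtATTTATTTAttcca
Cxcl2, chr5:90905328-90905357, plus strand: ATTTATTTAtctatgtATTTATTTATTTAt
Csf3, chr11:98702988-98703017, plus strand: gtttATTTAtctctATTTAatATTTAtgca
Il1b, chr2:129364801-129364830, minus strand: ttacctATTTATTTAtgtATTTAttgattg
Cxcl12, chr6:117180402-117180431, plus strand: atccgaATTTAaataggacATTTAcatcgg

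Csf2 had 9 ATTTA in a 3' UTR of 317 bases, which is 28.39 per kb. Cxcl1 had 7 in 592 bases (11.82 per kb), Csf3 6 in 669 (8.97), Il1b 4 in 459 (8.71), Cxcl3 5 in 645 (7.75), Cxcl2 11 in 1494 (7.36) and Cxcl5 5 in 1111 (4.50). Il1a had 2.72 per kb, Csf1 1.89 and Cxcl12 0.77, with 4 ATTTA in 5188 bases. The median of the 13401 other genes tested with an annotated 3' UTR was 1.32 per kb, and 9 of 10 members were above it. The longer string TATTTAT was in all 10 members and in 30.9% of those genes. Csf2, with the highest density, was among the members with the smallest difference.

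**Figure D5:**
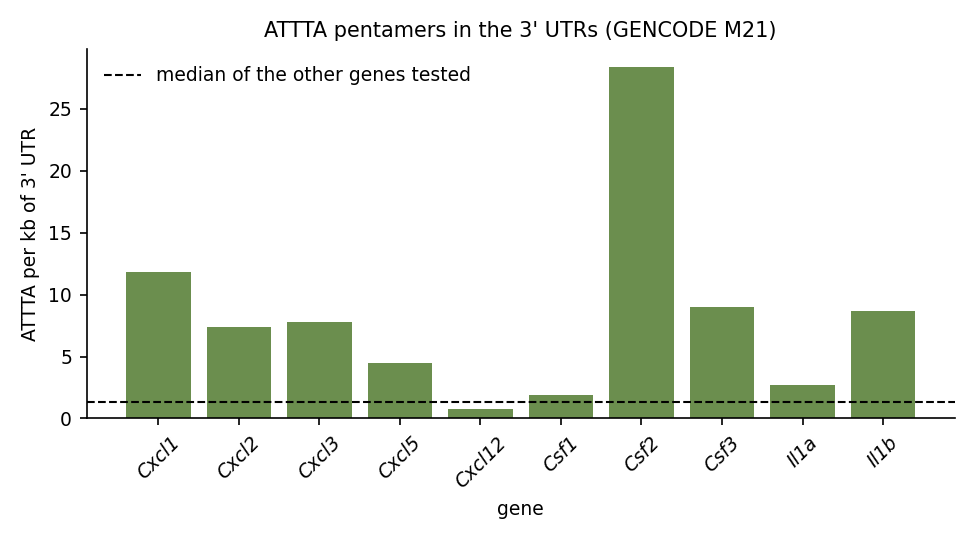
Number of ATTTA pentamers per kb of annotated 3' UTR (vertical axis) for each of the 10 genes, with the median of the other genes tested as a dashed line at 1.32. Csf2 is highest at 28.39, and Cxcl12, at 0.77, is the only bar under the line.

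Of the 10 genes for proteins that bind AU-rich mRNA or cut such mRNA, 0 passed, 7 were above 0 in difference with a median of 0.11, and 2 higher and 1 lower had an unadjusted p under 0.05 and groups apart. Over all genes 8.26% had such a p on the higher and 9.15% on the lower side, and 24.3% had groups apart. Zfp36l1 stood 0.18 higher (adjusted p = 0.135) and Zfp36l2 0.16 higher (0.189), both with groups apart. Hnrnpd, or AUF1, had 11.87, 11.98 and 11.86 in stress replicates 1 to 3 and 12.08, 12.14 and 12.09 in control replicates 1 to 3. It stood 0.20 lower with groups apart (adjusted p = 0.151).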

How the data were processed

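RNA of whole 4T1 tumours was sequenced as mRNA libraries. Per the submitters' processing notes, reads were handled with kallisto 0.46.1 and bcl2fastq on mm10. How the deposited values were made from these, and whether strand was used, is not stated there or in the labels. The authors deposited log2 values: although the name speaks of raw counts, they are fractional and run from -1.97 to 17.85. The base was taken to be 2, because powers of 2 sum to 1.69e+07 to 1.77e+07 per library. Depth is unknown. Genes averaging 2 to 3 had a median range between libraries of 0.0773, against 0.262 for those averaging 9 to 10, so weakly expressed genes vary less on this scale and their fold changes may be understated. Of 35453 rows, 12658 listed at 0 and 26 named by a date were left out, which left 22769.

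Stress was compared with control by limma 3.58.1 in R 4.3.3 (lmFit, eBayes with trend and robust, two-sided, no covariate) on the 14098 genes averaging 4 or more. The Benjamini-Hochberg adjustment ran over these genes, with a threshold of 0.05, and the fit was tested on simulated data. Ratios were tested with scipy 1.17.1. Alternatives were other filters, scalings and variance models, the replicate number as a block, and each library left out. Marker sums are the log2 of summed powers of 2. Promoters came from RefSeq (GRCm38.p6), and genes and 3' UTRs from GENCODE M21.

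The members and lists were chosen with earlier results of these data known. Named were all members, all receptors, Il1rn, and the 3 genes of each signalling or neutrophil list with the smallest p. The 3 genes most like Cxcl2 and Cxcl12 were named too. Named besides, after their values were seen, were Krt8, Krt5, Krt7, Cldn7 and list genes below the floor. So were the genes most like Cxcl1 and the neutrophil markers below 0 in difference.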

Additional observations from a re-analysis of the deposited data

How the results depend on the processing

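The differences of Cxcl1, Cxcl2, Cxcl3, Cxcl5, Cxcl12, Csf3 and Il1b kept their sign, and no member passed the threshold, under every filter, scaling, variance model and left-out library tried; Csf2 had no value with a mean of at least 6. The count of genes called, 5 in all, was 11 with a mean of at least 6, 8 after quantile normalization, 2 without a variance trend or robust estimation, and 0 with the replicate block; with 1 library left out it was 0 to 5, and 0 without stress replicate 1 or 3 or control replicate 1 or 3. The cause was not tested. Csf1 turned to -0.0444 after quantile normalization and ranged from -0.0792 to 0.0524 with 1 library left out, Csf2 from -0.0489 to 0.0734 and Il1a from -0.15 to 0.31. The ratio Il1a minus Il1rn ranged from -0.0974 to 0.15, Il1b minus Il1rn from 0.16 to 0.44, Csf3 minus Csf3r from -0.29 to -0.0874, Il1r1 minus Il1r2 from -0.37 to 0.14 and Csf1 minus Csf1r from -0.044 to 0.22. The called neutrophil markers numbered 0 to 1, the 1 being G0s2 without stress replicate 2 (1.05, adjusted p = 0.0378). With 1 library left out Cxcl1 ranged from 0.55 to 0.93 and Cxcl2 from 0.61 to 1.22. The count of members above 0, a setting added after the data were seen, was 8 or 9 throughout. Same-numbered stress and control libraries did not deviate together (r = -0.079, 0.0815 and -0.0183). Such r values cannot settle whether the replicate numbers pair the samples. With the replicate block the difference of Cxcl1 was 0.71 (limma adjusted p = 0.205). The 3 libraries per group and unknown depth limit all values.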
